A study of Mus musculus with 8 samples.

Results

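Day 6 was compared with day 3 in the 4 RNA-seq libraries of the series that were labelled *siOct4*, of 8 libraries in all. The members were the columns of that knockdown in the deposited table, with 2 libraries labelled as biological replicates at each day, and the other 4 libraries, labelled *siNcor1*, served for comparison. No library with a non-targeting siRNA was among the 8. All 8 came from primary mouse embryonic fibroblasts (MEFs) of wild-type BL6 animals, which were reprogrammed at passage 2. Every library shared the cassette: the cells had been transduced with lentiviruses carrying the tet-STEMCCA cassette (*Oct4*, *Sox2*, *Klf4* and *c-Myc*, or OSKM) and rtTA, the activator that switches the cassette on when doxycycline is present. They then received a pool of siRNAs at 40 nM against *Oct4* or *Ncor1*, and 24 hours later OSKM was induced with 2 µg/mL doxycycline in medium with 3 µM Chiron (a GSK3 inhibitor), 0.25 µM Alk5i (an inhibitor of a TGF-β receptor), 50 µg/mL ascorbic acid and LIF. RNA was collected at day 3 or day 6 of reprogramming. The labels describe no sorting of cells after transduction, and each library is a mean over the culture. In such bulk RNA, fewer cells of a type and less RNA per cell cannot be told apart.

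When OSKM is expressed in fibroblasts, the first large change is a mesenchymal-to-epithelial transition. The cells shut down the genes of the contractile cytoskeleton and of the extracellular matrix, and switch on cadherin, claudin and keratin genes, and the pluripotency genes of the embryonic stem cell network are activated later and in few cells. OCT4, encoded by *Pou5f1*, is one of the factors that drive this change, and the same gene is carried by the cassette.

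The *siOct4* libraries had library sizes of 14861698 and 7735742 reads (day 3) and of 9953541 and 11997160 reads (day 6), counted on genes, so 3 reads, the floor used here for detection, correspond to between 0.203 and 0.380 CPM (the reads of a gene scaled to a common library size). The long non-coding gene *Gm26917* took 16.2% and 15.5% of the reads at day 3 and 29.1% and 23.9% at day 6 (log2 fold change 0.80, standard error 0.92, adjusted p = 0.49). RNA from before day 3 was not analysed here. The target *Pou5f1* measured 7.53 and 7.62 log2-cpm in the *siOct4* libraries at day 3, against 7.63 and 7.68 in *siNcor1*, and the group is named by its label throughout. Fibroblast markers were present at day 3, with a summed level of 11411 and 12907 CPM over all 13 listed markers, and 3585 and 3768 CPM at day 6. That sum includes the collagen chains *Col1a1*, *Col1a2* and *Col3a1*, which are described below. Of 13 tested fibroblast markers, 7 were lower and 1 was higher at day 6, where 30.5% of all genes tested were lower and 22.2% were higher. In *siNcor1*, 3 of the 13 were lower and 6 were higher (median 0.45), where 20.9% of all genes were lower and 13.8% were higher.

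The change between the days was broad. Of 13866 genes that averaged 1 CPM or more across all 8 libraries, 7312 (52.7%) passed the threshold of the test (limma on log2-cpm, Benjamini-Hochberg adjusted p under 0.05). Of all genes tested, 22.2% (3079) were higher at day 6 and 30.5% (4233) were lower. Among those called, 1593 rose and 1390 fell by at least 1 on the log2 scale, 413 and 278 by at least 2, and 129 and 70 by at least 3. The median absolute log2 fold change of the called genes was 0.87. Between the libraries of one day, the median absolute log2 difference was 0.162 at day 3 and 0.257 at day 6, against 0.520 between the days. Both libraries of one day lay on the same side of both of the other for 10374 genes (74.8%). The excess of lower over higher genes depended on the scaling, because the median log2 fold change of all genes was −0.079 as deposited and 0.055 with *Gm26917* left out of the library totals. With that scaling, 52.5% of the called genes were higher, against 42.1% as deposited. A second property moved with the direction of change: when the genes were split by exonic length into 5 equal classes, in the shortest class, 40.4% were higher and 10.3% were lower, and in the longest, 9.42% were higher and 55.2% were lower. These shares over all genes tested, 22.2% higher and 30.5% lower, are the background against which the count of each group below is to be read. The median exonic length was 4363 bases over all genes, and it is given for some of the groups far from that, not for all of them.

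**Figure D1:**
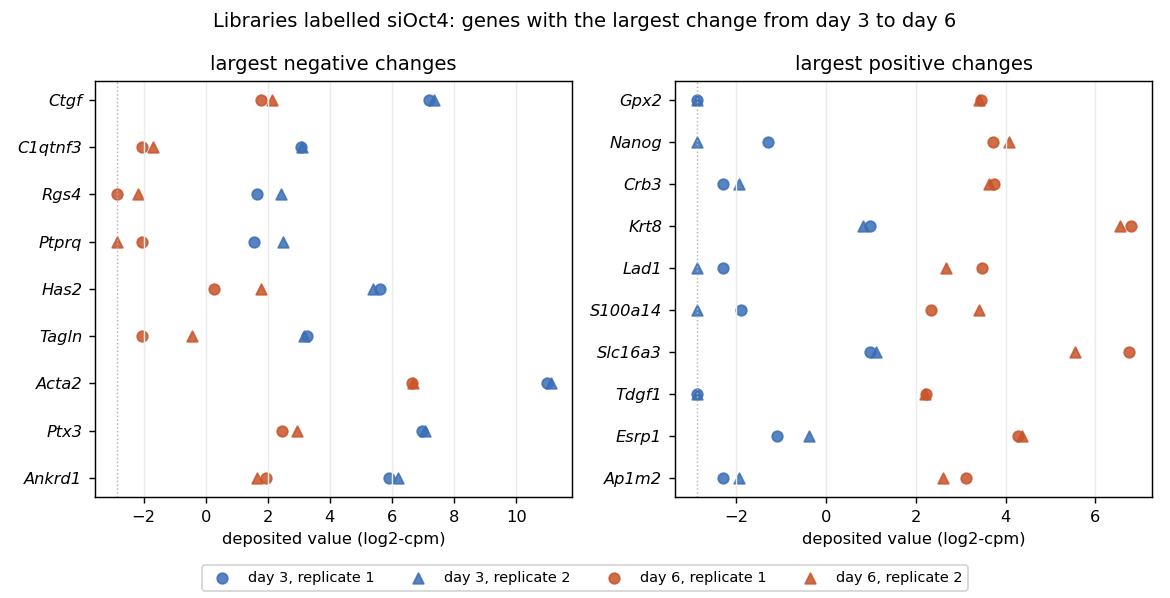
Deposited log2-cpm (horizontal axes) of the named genes among the 10 largest negative and the 10 largest positive log2 fold changes from day 3 to day 6, one point per library labelled siOct4 (blue, day 3; orange, day 6; circle, replicate 1; triangle, replicate 2). The dotted line marks the value of 0 reads. Only genes for which the 2 libraries of one day lie apart from the 2 of the other were eligible to be shown.

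The genes of the contractile cytoskeleton fell together. All 20 of 20 tested contractile and actin-binding genes were lower at day 6, with a median log2 fold change of −2.49, against 30.5% lower and a median of −0.079 over all genes. Together these genes took 1.28% and 1.46% of the reads outside *Gm26917* at day 3, and 0.284% and 0.276% at day 6. *Acta2*, which encodes smooth muscle α-actin, was 10.99 and 11.12 log2-cpm at day 3 against 6.64 and 6.68 at day 6. The libraries of a day were nearly equal and the days lay far apart, a fall of 20.9-fold (log2 fold change −4.39, standard error 0.18, adjusted p = 2.10e-08). *Cnn1*, the actin-binding protein calponin, had 3821 and 2278 reads at day 3 against 151 and 147 at day 6 (log2 fold change −4.26, standard error 0.17, adjusted p = 2.10e-08), and *Actg2*, smooth muscle γ-actin, had 4552 and 2701 reads at day 3 against 162 and 206 at day 6 (log2 fold change −4.22, standard error 0.20, adjusted p = 9.87e-08). *Tagln*, which encodes SM22, also fell (138 and 69 reads at day 3 against 1 and 7 at day 6, log2 fold change −4.45, standard error 0.45, adjusted p = 1.27e-05), although it carried few reads and overlaps *Pcsk7* on the other strand. Smooth muscle myosin *Myh11* (−3.79 ± 0.18) and tropomyosin *Tpm2* (−3.02 ± 0.14) fell as well (log2 fold change ± standard error). The smallest falls were those of *Tagln2* (−0.60) and of *Srf* (−0.98), the transcription factor that binds the promoters of contractile genes together with the product of *Mkl1* (−1.39). In *siNcor1*, where 20.9% of all genes were lower and 13.8% were higher, 18 of the 20 were also lower, with a smaller median of −1.02, and for 18 genes the fall was greater in the *siOct4* libraries (test of the difference of the changes, adjusted p under 0.05). Over all genes, that test gave a more negative change in the *siOct4* libraries for 12.9% and a more positive one for 7.77%. The 20 contractile genes summed in the *siOct4* libraries to 10761 and 12056 CPM at day 3 and 2120 and 2138 CPM at day 6. In *siNcor1* they summed to 8887 and 7094 CPM at day 3 and 3735 and 3686 CPM at day 6. The greater fall in the *siOct4* libraries went with a higher start and a lower end.

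Targets of YAP, the transcriptional co-activator that works with TEAD factors when cells are spread and under tension, fell alongside. Of 16 tested genes of the pathway, 13 were lower and 0 were higher (median −1.41). *Ctgf*, a secreted matricellular protein on chromosome 10 from 24595442 to 24598683 of mm10, had the largest fall of any gene that had a gene name, passed the threshold and did not overlap between the days. It measured 7.18 and 7.35 log2-cpm at day 3 against 1.77 and 2.13 at day 6 (log2 fold change −5.32, standard error 0.23, adjusted p = 4.64e-08). *Ankrd1* was 5.90 and 6.20 log2-cpm at day 3 against 1.94 and 1.64 at day 6 (log2 fold change −4.26, standard error 0.22, adjusted p = 1.38e-07). *Cyr61*, a relative of *Ctgf*, was 8.19 and 8.25 log2-cpm at day 3 against 5.47 and 5.53 at day 6 (log2 fold change −2.72, standard error 0.12, adjusted p = 5.89e-08). For each of these target genes, both day 6 libraries lay more than 2 log2 units below both day 3 libraries. The regulators themselves changed less: *Yap1* by −0.68 (adjusted p = 2.61e-04), *Wwtr1*, which encodes TAZ, by −0.82 (adjusted p = 9.86e-05) and *Tead1* by −1.46 (adjusted p = 6.60e-06), while *Tead2* (−0.12) and *Tead4* (−0.26) did not pass the threshold. In *siNcor1* the median of the list was −0.67. The changes of *Ctgf* and *Ankrd1* were −2.43 and −1.83 there, and the differences from the *siOct4* libraries passed the threshold (−2.88 and −2.43).

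The promoters of *Ankrd1* and of the contractile gene *Acta2* are shown because both genes fell and both windows hold the letters of the TEAD site. The sequences are from RefSeq (GRCm38.p6), from 250 bases before to 50 bases after the annotated start, read 5′ to 3′ on the strand of the gene, which is the reverse strand for both. Capitals mark matches to GGAATG, the TEAD site, and in *Ankrd1* also one match to the CCAAT box, searched on both strands.
Ankrd1 promoter, chr19:36119795-36120094: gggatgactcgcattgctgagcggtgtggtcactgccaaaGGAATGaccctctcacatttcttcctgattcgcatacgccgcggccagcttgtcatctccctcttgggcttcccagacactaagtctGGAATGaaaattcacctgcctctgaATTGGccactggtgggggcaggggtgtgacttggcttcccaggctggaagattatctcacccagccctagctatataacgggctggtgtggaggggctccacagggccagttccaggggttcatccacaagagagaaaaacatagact
Acta2 promoter, chr19:34255324-34255623: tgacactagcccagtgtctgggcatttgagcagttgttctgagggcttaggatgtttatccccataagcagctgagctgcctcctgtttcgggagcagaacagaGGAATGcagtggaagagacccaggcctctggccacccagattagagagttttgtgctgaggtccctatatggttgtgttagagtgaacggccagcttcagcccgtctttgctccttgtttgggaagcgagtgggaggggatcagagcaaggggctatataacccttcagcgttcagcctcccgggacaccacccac
*Ankrd1* has 2 TEAD matches, which start 210 and 123 bases before the annotated start, and *Acta2* has 1, at 146 bases. Of 27025 RefSeq promoters of the same length, 14.6% hold such a match and 37.9% hold CCAAT. A match describes the letters and does not show that a factor was bound.

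Genes of the extracellular matrix fell as a body. Of 25 tested collagen chains 18 were lower and 3 were higher (median −1.53), and of 32 matrix glycoproteins, proteoglycans and elastic fibre genes 23 were lower and 5 were higher (median −1.19), with 3 higher without day 3 replicate 2 or day 6 replicate 1. *Col1a1*, the α1 chain of the fibril-forming collagen I, was 12.43 and 12.72 log2-cpm at day 3 against 9.71 and 9.68 at day 6, a fall of 7.37-fold (log2 fold change −2.88, standard error 0.18, adjusted p = 4.01e-07). Its partner *Col1a2* was 10.79 and 10.99 log2-cpm at day 3 against 8.92 and 8.95 at day 6, a fall of 3.88-fold (log2 fold change −1.95, standard error 0.14, adjusted p = 1.37e-06). The 2 days did not overlap for either chain. The collagen chains took 2.14% and 2.65% of the reads outside *Gm26917* at day 3 and 0.833% and 0.832% at day 6. The largest falls among the chains were those of *Col2a1* (−3.41 ± 0.24) and *Col8a1* (−3.34 ± 0.13). The basement membrane chains *Col4a1* (−1.53) and *Col4a2* (−1.80) fell too, and the chains of the microfibril-forming collagen VI fell less (*Col6a1* −0.71, *Col6a2* −0.66 and *Col6a3* −0.65). Not all chains moved this way: *Col18a1*, a basement membrane collagen of epithelia and vessels, rose by 2.21 (1363 and 851 reads at day 3 against 4604 and 5192 at day 6), and *Col11a2* rose by 1.59.

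Fibronectin followed the collagens, and so did the genes that build and link fibres. *Fn1* was 11.63 and 11.98 log2-cpm at day 3 against 9.80 and 9.62 at day 6 (log2 fold change −2.10, standard error 0.18, adjusted p = 3.86e-06), and thrombospondin 1, *Thbs1*, was 12.65 and 12.97 log2-cpm at day 3 against 9.25 and 9.47 at day 6 (log2 fold change −3.45, standard error 0.20, adjusted p = 2.90e-07). The elastic fibre gene *Fbln5* fell by 10.9-fold (1284 and 665 reads at day 3 against 62 and 108 at day 6), and the small proteoglycans *Ogn* (−3.33 ± 0.23) and *Fmod* (−3.29 ± 0.17) fell similarly. Other small proteoglycans went the other way, with *Dcn* at 604 and 238 reads at day 3 against 715 and 1757 at day 6 (log2 fold change 1.59, standard error 0.26, adjusted p = 3.48e-04) and *Lum* at a log2 fold change of 1.85, and *Spp1*, osteopontin, rose by 2.19. Among 21 enzymes that hydroxylate, trim or crosslink collagen, 14 were lower and 2 were higher (median −0.76). The crosslinking oxidases *Lox* (4567 and 2943 reads at day 3 against 331 and 398 at day 6, log2 fold change −3.30, standard error 0.12, adjusted p = 2.10e-08) and *Loxl2* (−2.64 ± 0.14) led these. Among 23 matrix proteases and their inhibitors, 16 were lower and 1 was higher. *Timp3*, an inhibitor of metalloproteinases, was 7.45 and 7.50 log2-cpm at day 3 against 4.21 and 4.68 at day 6 (log2 fold change −3.03, standard error 0.15, adjusted p = 1.04e-07). The single protease gene that rose was *Mmp3*, stromelysin 1 (157 and 75 reads at day 3 against 349 and 995 at day 6, log2 fold change 2.46, standard error 0.30, adjusted p = 4.40e-05). *Has2*, the hyaluronan synthase, which is in none of these lists, was at 713 and 329 reads at day 3 against 10 and 39 at day 6 (log2 fold change −4.47, standard error 0.37, adjusted p = 3.09e-06).

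For most matrix genes the 2 knockdowns differed. In *siNcor1* the collagen chains split evenly, with 9 higher and 9 lower (median −0.25), and the change was more negative in the *siOct4* libraries for 20 of 25 chains and more positive for 0. For *Col1a1* the change in *siNcor1* was −1.15 and the difference −1.73, standard error 0.25, adjusted p = 0.00125. *Col3a1* fell by 0.47 in the *siOct4* libraries and rose by 0.58 in *siNcor1* (difference −1.05, standard error 0.24, adjusted p = 0.0101), and *Col6a3* was likewise at −0.65 and 0.96, although the call of the fall of *Col3a1* was lost when day 3 replicate 2 or day 6 replicate 1 was left out. The difference was more negative in the *siOct4* libraries for 22 of 23 protease genes (13 without *siNcor1* day 3 replicate 2), 25 of 32 glycoprotein genes and 15 of 21 processing genes, and more positive for 0, 0 and 0. In reads outside *Gm26917*, the collagen chains stayed between 1.48% and 1.71% in the 4 *siNcor1* libraries. The collagen chains also started higher in the *siOct4* libraries, with a sum of 18036 and 21924 CPM at day 3 against 14044 and 13521 CPM in *siNcor1*. At day 6 the sums were 6209 and 6446 CPM in the *siOct4* libraries and 11567 and 12191 CPM in *siNcor1*.

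**Figure D2:**
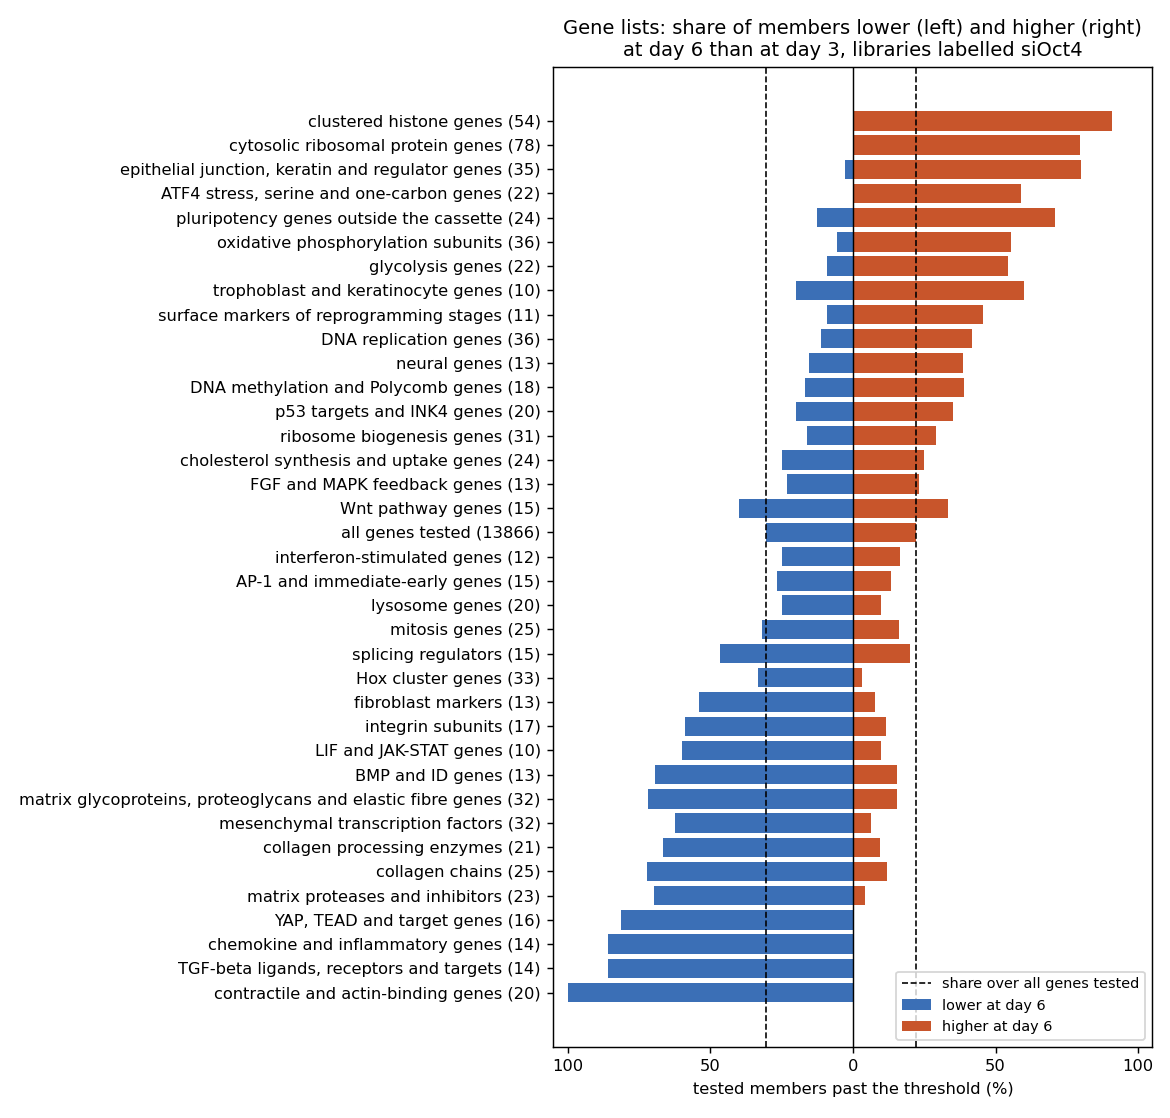
Share of the tested members of each gene list (number in brackets) that were lower (blue, to the left) or higher (orange, to the right) at day 6 than at day 3 in the libraries labelled siOct4, in percent, for lists with at least 10 tested members. Dashed lines mark the shares over all genes tested, 30.5% lower and 22.2% higher, and contractile, TGF-β, chemokine and YAP genes lie at one end with histone, ribosomal protein and epithelial genes at the other.

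Receptors and signals of the mesenchymal state fell with the matrix. Of 14 tested TGF-β ligands, receptors and targets, 12 were lower and 0 were higher (median −0.81). At a median length of 5708 bases, 9 were lower and 1 was higher with centring within length classes (median −0.60). With quantile normalization, and with *Gm26917* left out of the library totals, 10 were lower and 1 was higher. The culture medium held an inhibitor of the TGF-β receptor at both days. The ligands *Tgfb3* (1840 and 1164 reads at day 3 against 160 and 160 at day 6, log2 fold change −3.15, standard error 0.17, adjusted p = 1.89e-07) and *Inhba* (−3.12 ± 0.16) fell most, and *Tgfb1* did not pass the threshold (−0.37, adjusted p = 0.0684). Of the receptors, *Tgfbr1* fell by 1.05, and of the signal transducers and targets, *Smad3* fell by 0.68 and *Smad7*, a feedback inhibitor, fell by 1.49. Among 17 integrin subunits, 10 were lower and 2 were higher (median −0.90, or −0.61 with centring within length classes, at a median length of 7015 bases). *Itga5*, the fibronectin receptor subunit, was 8.39 and 8.66 log2-cpm at day 3 against 6.01 and 5.98 at day 6 (log2 fold change −2.53, standard error 0.15, adjusted p = 3.43e-07), and the collagen-binding subunits *Itga1* (−2.36) and *Itga11* (−2.42) fell alike. *Itgb4*, the subunit of epithelial hemidesmosomes, rose by 1.53 (611 and 312 reads at day 3 against 1464 and 1049 at day 6), and *Itgb3* rose by 0.66. For the BMP pathway, 9 of 13 genes were lower and 2 were higher. The target *Id3* fell by 1.15, while the ligands *Bmp2* (1.87) and *Bmp7* (1.94) rose.

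Many transcription factors of mesenchymal cells fell. Of 32 tested, 20 were lower and 2 were higher (median −1.0, against −0.40 in *siNcor1*). Their summed level was 1773 and 1778 CPM at day 3 and 951 and 878 CPM at day 6. The repressors of epithelial genes *Zeb1* (−1.56 ± 0.14), *Zeb2* (−1.48 ± 0.14), *Snai1* (−1.19 ± 0.17) and *Snai2* (−1.01 ± 0.17) were lower, and *Twist1* (−0.19, adjusted p = 0.427) and *Twist2* (0.0065, adjusted p = 0.978) did not pass the threshold. *Zeb1* measured 6.65 and 6.65 log2-cpm at day 3 against 4.93 and 5.24 at day 6, with no overlap between the days. *Ebf2* (−2.14), *Osr1* (−1.72) and *Prrx2* (−1.59) fell most, and the 2 that rose were *Foxd1* (1.23) and *Osr2* (0.96). Of 33 tested Hox cluster genes, which keep the positional identity of the fibroblast, 11 were lower (33.3%) and 1 was higher. The lower count was 7 without day 6 replicate 2 and 14 without day 6 replicate 1. It was 15 with quantile normalization and with centring within length classes, where 3432 of 13856 genes were lower, and these genes are short (median 2483 bases). *Hoxc8* (−1.72), which shares part of its locus with *Hoxc5*, fell most, and *Hoxb7* rose (0.95).

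Inflammatory genes of fibroblasts fell in the *siOct4* libraries. Of 14 tested chemokine and inflammatory genes 12 were lower and 0 were higher (median −1.95), against 2 higher and 5 lower with a median of −0.028 in *siNcor1*. *Ptx3*, a secreted pattern recognition protein, was 6.96 and 7.06 log2-cpm at day 3 against 2.47 and 2.94 at day 6 (log2 fold change −4.31, standard error 0.16, adjusted p = 2.10e-08). *Il6* had 46 and 21 reads at day 3 against 2 and 4 at day 6 (log2 fold change −2.89, standard error 0.40, adjusted p = 1.10e-04). The chemokine *Ccl2* was 5.24 and 5.24 log2-cpm at day 3 against 2.97 and 3.63 at day 6, and its fall (log2 fold change −1.94, standard error 0.20, adjusted p = 1.17e-05) differed from the change of 0.44 in *siNcor1* (difference −2.39, standard error 0.28, adjusted p = 6.34e-04). *Saa3*, an acute-phase protein, was at 145 and 80 reads at day 3 against 7 and 29 at day 6, a log2 fold change of −2.74 against 0.38 in *siNcor1*. *Icam1* (0.29) did not pass the threshold. The receptors and kinases of the LIF and JAK-STAT pathway were lower as well, with 6 of 10 lower and 1 higher (median −1.28, or −0.84 with centring within length classes, at a median length of 6823 bases). The shared receptor chain *Il6st* (−1.98 ± 0.14), the oncostatin receptor *Osmr* (−1.92 ± 0.19), *Lifr* (−1.54 ± 0.17) and the kinase *Jak1* (−1.76 ± 0.15) led these, *Stat3* fell by 1.03, and *Pim1*, a target kinase, rose by 1.06. Of 12 interferon-stimulated genes, 3 were lower and 2 were higher. The sensor *Ifih1* fell (−1.84) and the membrane protein *Bst2* rose (249 and 114 reads at day 3 against 808 and 959 at day 6, log2 fold change 2.41, standard error 0.16, adjusted p = 5.78e-07). Of 15 AP-1 and immediate-early genes, 4 were lower and 2 were higher, with *Fosl2* at −1.55 and *Atf3* at 1.22. With centring within length classes 7 of these short genes (median 2594 bases) were lower and 1 was higher.

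Epithelial genes were gained, some of them from near 0. Of 36 listed junction, keratin and regulator genes, 35 averaged 1 CPM or more over the 8 libraries and were tested. A gene near 0 at day 3 in both knockdowns could reach that mean only through its day 6 level, which favours higher calls. Of the 35 tested genes, 28 were higher and 1 was lower (median 2.77), against 22.2% higher over all genes. They took 0.0571% and 0.0642% of the reads outside *Gm26917* at day 3 and 0.145% and 0.127% at day 6, so the share remained small. *Krt8*, a keratin of simple epithelia, was 0.97 and 0.83 log2-cpm at day 3 against 6.79 and 6.55 at day 6, a rise of 54.3-fold (log2 fold change 5.76, standard error 0.16, adjusted p = 1.97e-09). E-cadherin, *Cdh1*, was 2.94 and 3.23 log2-cpm at day 3 against 6.71 and 6.60 at day 6 (log2 fold change 3.57, standard error 0.13, adjusted p = 2.10e-08). *Epcam*, the epithelial adhesion molecule, was 0.76 and 1.83 log2-cpm at day 3 against 5.92 and 5.78 at day 6 (log2 fold change 4.55, standard error 0.26, adjusted p = 2.88e-07). In each of these genes both day 6 libraries lay far above both day 3 libraries. The libraries of a day were close together, except those of *Epcam* at day 3. *Esrp1*, a splicing factor of epithelial cells, had 5 and 5 reads at day 3 against 181 and 243 at day 6 (log2 fold change 5.05, standard error 0.26, adjusted p = 1.38e-07).

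Several epithelial genes had 3 reads or fewer in both day 3 libraries, and for these a lower bound of the fold against 3 reads in each day 3 library is given. *Crb3*, a protein of the apical membrane, had 1 and 1 reads at day 3 against 126 and 144 at day 6 and was at least 43.8-fold higher at day 6. *Cldn4* (2 and 1 reads at day 3 against 64 and 83 at day 6) and *Cldn6* (0 and 1 reads at day 3 against 27 and 53 at day 6), claudins of tight junctions, were at least 23.7-fold and 12.6-fold higher. *Ap1m2*, an adaptor for sorting to the basolateral membrane, was at least 24.9-fold higher, and *Grhl2*, a transcription factor that binds epithelial junction genes, at least 12.3-fold. The list held 9 such genes of 35, and its median was the same with these genes at their bound. A few members stayed flat or fell: *Krt19* (−0.096), *Dsp* (0.26) and *Krt7* (−0.59) did not pass the threshold, and plakoglobin, *Jup*, was lower (log2 fold change −1.09, standard error 0.14, adjusted p = 8.33e-05). The list rose in *siNcor1* too, with 30 higher and a median of 2.58. Within it the knockdowns differed in both directions, with a more positive change in the *siOct4* libraries for 10 genes and a more negative one for 7 (4 and 4 without *siNcor1* day 3 replicate 2, 5 and 4 without either *siNcor1* day 6 library, and 8 and 4 without *siOct4* day 3 replicate 2). *Cdh1* (3.57 against 2.24) and *Esrp1* (5.05 against 3.04) rose more in the *siOct4* libraries, and *Krt18* (2.22 against 5.46) rose less. The greater rise of *Cdh1* went with a lower start, since in *siNcor1* it measured 5.05 and 5.15 at day 3 against 7.37 and 7.31 at day 6. Of 10 tested trophoblast and keratinocyte genes, 6 were higher and 2 were lower (0 lower without day 3 replicate 2). *Tfap2c*, a factor of trophoblast and germ cells, rose by 3.61 (4 and 6 reads at day 3 against 58 and 101 at day 6). The gap junction gene *Gjb2* was at least 2.28-fold lower (8 and 6 reads at day 3 against 1 and 1 at day 6), while in *siNcor1* it rose (adjusted p = 5.88e-05). The trophoblast and keratinocyte list held 20 genes, and those that averaged under 1 CPM over the 8 libraries were not tested. Here too, a gene near 0 at day 3 in both knockdowns could be tested only through its day 6 level, which favours higher calls.

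Pluripotency genes outside the cassette rose from very low levels. Of 30 listed, 24 averaged 1 CPM or more over the 8 libraries and were tested. A gene near 0 at day 3 in both knockdowns could pass that filter only through its day 6 level, which favours higher calls. Of 24 tested, 17 were higher and 3 were lower (median 1.47), and 5 were lower without day 6 replicate 1. *Nanog*, a core factor of the pluripotency network, had 4 and 0 reads at day 3 against 123 and 197 at day 6 (log2 fold change 5.98, standard error 0.43, adjusted p = 1.07e-06). *Sall4*, which is activated early in reprogramming, had 13 and 28 reads at day 3 against 233 and 213 at day 6 (log2 fold change 3.46, standard error 0.43, adjusted p = 4.87e-05). *Tdgf1*, a co-receptor for NODAL, had 0 and 0 reads at day 3 against 43 and 53 at day 6, at least 15.5-fold higher. For all 3 genes the days did not overlap, which held for 74.8% of all genes. The list held 6 genes at 3 reads or fewer at day 3, and its median was the same with these at their bound. *Nr5a2* (2.93 ± 0.37) and *Nr0b1* (2.14 ± 0.33), nuclear receptors of the network, and *L1td1* (1.56 ± 0.20) rose from measurable levels. Genes that are usually activated late were detected with few reads: *Esrrb* had 1 and 0 reads at day 3 against 14 and 16 at day 6, *Lin28a* had 0 and 0 reads at day 3 against 15 and 18 at day 6 and *Dppa3* had 0 and 0 reads at day 3 against 7 and 22 at day 6, at least 4.87-fold, 5.34-fold and 4.47-fold higher. Among the genes that fell were *Tbx3* (log2 fold change −1.17, standard error 0.16, adjusted p = 8.74e-05) and *Tfcp2l1* (log2 fold change −1.03, standard error 0.21, adjusted p = 0.00141). Both encode factors of naive pluripotency.

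The same list rose in *siNcor1*, where 14 were higher and 1 was lower (median 1.25). Its members differed between the knockdowns in both directions, 6 more positive and 5 more negative in the *siOct4* libraries (2 and 3 without *siNcor1* day 3 replicate 2 or day 6 replicate 2, and 3 and 3 without *siNcor1* day 6 replicate 1). *Nanog* changed by 5.07 in *siNcor1*, and the difference did not pass the threshold (0.91, standard error 0.61, adjusted p = 0.307). *Tfcp2l1* rose by 2.45 in *siNcor1* (difference −3.48, standard error 0.29, adjusted p = 2.40e-04). The sum over the list was 217 and 242 CPM at day 3 and 407 and 356 CPM at day 6 in the *siOct4* libraries.

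The promoters of 1 epithelial and 1 pluripotency gene that rose are shown in the same way, from RefSeq (GRCm38.p6), both on the forward strand. Capitals mark matches to the KLF site GGGNGTGG, and in *Epcam* also to CACGTG, the E-box bound by MYC, and to TTTGAA, part of the cell-cycle homology region, on both strands.
Epcam promoter, chr17:87635729-87636028: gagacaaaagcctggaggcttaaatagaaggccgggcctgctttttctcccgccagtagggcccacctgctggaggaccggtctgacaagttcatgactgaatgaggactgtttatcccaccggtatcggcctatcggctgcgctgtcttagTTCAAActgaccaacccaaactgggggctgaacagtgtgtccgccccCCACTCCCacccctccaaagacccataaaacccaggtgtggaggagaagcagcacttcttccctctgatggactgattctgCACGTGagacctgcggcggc
Nanog promoter, chr6:122707239-122707538: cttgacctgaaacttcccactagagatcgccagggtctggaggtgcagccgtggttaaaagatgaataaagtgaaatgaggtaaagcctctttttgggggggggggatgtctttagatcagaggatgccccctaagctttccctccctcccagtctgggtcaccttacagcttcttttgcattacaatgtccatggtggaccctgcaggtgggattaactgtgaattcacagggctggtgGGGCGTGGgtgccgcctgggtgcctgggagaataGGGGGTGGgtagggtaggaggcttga
The KLF site was found 1 time in the *Epcam* window, 51 bases before the start, and 2 times in the *Nanog* window, where 2 starts are annotated and the first listed is shown. It was not found in the windows of *Krt8* and *Klf4*, which also rose and were searched but are not printed. Of all 27025 promoters, 17.6% hold the KLF site, 7.24% hold CACGTG and 18.1% hold TTTGAA. The octamer ATGCAAAT, bound by OCT4 and held by 1.75% of promoters, was not found in any of the 4 windows printed. That says only that these exact letters are not in those windows. A site that differs from them in any letter was not counted, so the search does not show that a window lacks an OCT4 site.

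The 4 cassette factors rose between the days in the *siOct4* libraries. *Pou5f1*, on chromosome 17 from 35506018 to 35510772 of mm10, was 7.53 and 7.62 log2-cpm at day 3 against 9.45 and 8.97 at day 6, a rise of 3.1-fold (log2 fold change 1.63, standard error 0.16, adjusted p = 8.00e-06). *Klf4* was 9.07 and 9.26 log2-cpm at day 3 against 10.72 and 10.13 at day 6 (log2 fold change 1.26, standard error 0.18, adjusted p = 1.27e-04). *Sox2* was 8.14 and 8.31 log2-cpm at day 3 against 9.60 and 8.94 at day 6 (log2 fold change 1.05, standard error 0.19, adjusted p = 6.24e-04). *Myc* was 9.07 and 9.18 log2-cpm at day 3 against 10.32 and 9.85 at day 6 (log2 fold change 0.96, standard error 0.16, adjusted p = 3.62e-04). For each factor, both day 6 libraries lay above both day 3 libraries, with replicate 1 the higher of the 2 at day 6. The replicates at day 6 were spread by between 0.47 and 0.66 on the log2 scale, and the median of the 4 factors was 0.84 without day 6 replicate 1 and 1.46 without day 6 replicate 2. In *siNcor1* the same genes changed by −0.22, −0.48, −0.54 and −0.68, and all 4 differences of the changes passed the threshold (for *Pou5f1*, 1.85, standard error 0.22, adjusted p = 6.40e-04). The deposited values do not separate transcripts of the cassette from those of the endogenous genes.

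**Figure D3:**
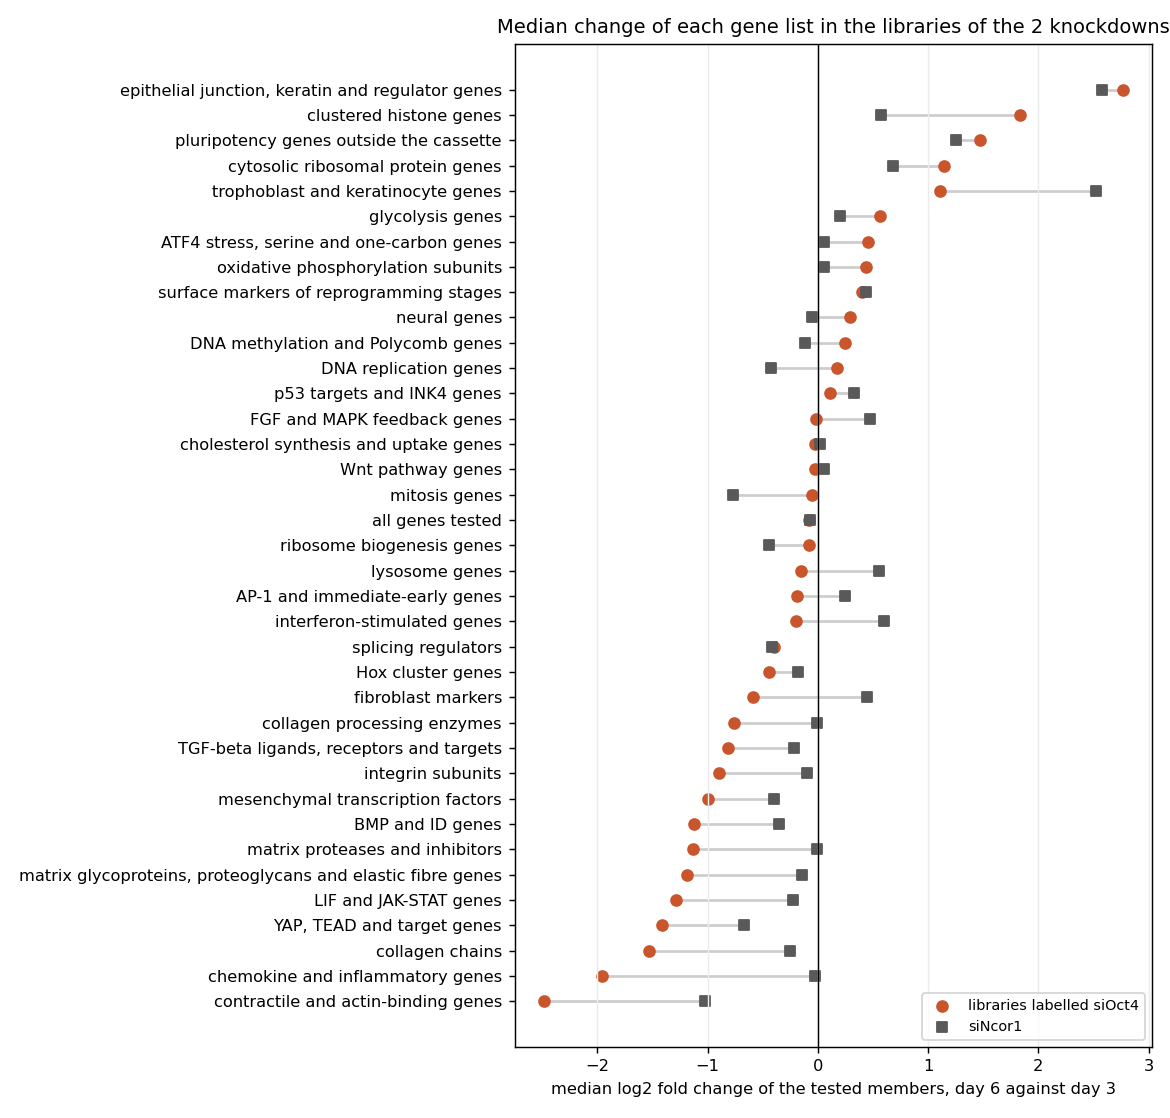
Median log2 fold change from day 6 against day 3 over the tested members of each gene list, in the libraries labelled siOct4 (orange circles) and in siNcor1 (grey squares). Contractile genes lie at −2.49 and −1.02, collagen chains at −1.53 and −0.25, and epithelial genes at 2.77 and 2.58.

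Counted by reads, 27 of 18990 genes in the table (0.142%) were gained, with 3 reads or fewer in both day 3 libraries and at least 30 in both day 6 libraries. Only 4 (0.0211%) were lost by the same rule. Of the 27 gained genes 24 were protein coding. Those with the most reads were *Crb3*, *Gpx2*, *Lad1*, *S100a14*, *Rnf208*, *Kcnh3*, *Ap1m2*, *Cldn4*, *Mt3* and *Elavl3*. *Gpx2*, a glutathione peroxidase of epithelia, had 0 and 0 reads at day 3 against 102 and 124 at day 6 and was at least 36.5-fold higher. *Lad1*, a basement membrane anchor, had 1 and 0 reads at day 3 against 104 and 74 at day 6 (at least 29.6-fold). *S100a14* had 2 and 0 reads at day 3 against 47 and 124 at day 6 (at least 26.6-fold), with replicate 2 well above replicate 1 at day 6. Next to epithelial genes, the gained genes included some of neurons: the RNA-binding protein *Elavl3* had 3 and 3 reads at day 3 against 61 and 53 at day 6 (at least 18.8-fold) and the proneural factor *Neurog2* had 3 and 3 reads at day 3 against 42 and 36 at day 6 (at least 12.9-fold). The potassium channel *Kcnh3* had 3 and 1 reads at day 3 against 77 and 77 at day 6, although it lies across *Mcrs1* on the other strand. The limit of 3 reads depends on depth. The *siNcor1* libraries were deeper at day 3 (15961703 and 16445192 reads) but of similar depth at day 6 (12072599 and 11320066 reads). There *Gpx2* went from 4 and 3 reads at day 3 to 497 and 483 at day 6, and *Cldn4* from 15 and 8 to 739 and 688. Both genes missed the rule there by their day 3 reads, although their day 6 reads exceeded those in the *siOct4* libraries. The rule was therefore not used to compare the knockdowns.

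The 4 lost genes were *C1qtnf3*, *Rgs4*, *Ptprq* and *Nebl*. *C1qtnf3*, a secreted relative of complement C1q, had 121 and 66 reads at day 3 against 1 and 2 at day 6 and was at least 29-fold lower at day 6. *Rgs4*, a regulator of G protein signalling, had 44 and 41 reads at day 3 against 0 and 1 at day 6 (at least 14.3-fold), the phosphatase *Ptprq* had 41 and 43 reads at day 3 against 1 and 0 at day 6 (at least 14.4-fold), and *Nebl*, an actin-binding protein, had 49 and 30 reads at day 3 against 3 and 1 at day 6 (at least 12.4-fold). With a minimum of 10 reads in place of 30, the counts were 133 gained and 36 lost.

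Proliferation genes did not move as 1 block. Of 25 tested mitosis genes 4 were higher and 8 were lower, a median of −0.050, with medians between −0.11 and 0.19 over the scalings. Leaving out day 3 replicate 2 left 2 higher, and leaving out day 6 replicate 1 left 6. *Mki67*, the proliferation marker, was 8.56 and 8.73 log2-cpm at day 3 against 7.28 and 7.52 at day 6 (log2 fold change −1.24, standard error 0.14, adjusted p = 2.12e-05), and *Cenpe* and *Tpx2*, of the spindle, both fell (−0.79 and −0.79), whereas *Nusap1* rose by 1.07. Of 36 DNA replication genes, 15 were higher and 4 were lower (median 0.18). Without day 3 replicate 2, the shallowest library, 9 were higher, and the median lay between 0.12 and 0.40 over the scalings. *Pcna*, the polymerase clamp, was 6.95 and 6.56 log2-cpm at day 3 against 7.76 and 7.94 at day 6 (log2 fold change 1.10, standard error 0.14, adjusted p = 7.48e-05), and the clamp loader subunit *Rfc4* rose by 1.37. The ribonucleotide reductase genes *Rrm2* (−0.77) and *Rrm1* (−0.68) and the helicase subunit *Mcm4* (−0.76) fell. In *siNcor1*, 17 of the mitosis genes and 16 of the replication genes were lower and 0 were higher in either list. The change was more positive in the *siOct4* libraries for 10 mitosis and 14 replication genes and more negative for 0 of both lists. That difference rested on single libraries: without *siOct4* day 3 replicate 2 it was called for 0 mitosis and 6 replication genes, and without *siNcor1* day 3 replicate 2 for 0 and 3.

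Of 20 p53 targets and INK4 genes, which oppose proliferation in reprogramming, 7 were higher and 4 were lower, where 22.2% and 30.5% of all genes were, with 2 lower without day 3 replicate 1 and between 2 and 6 lower over the scalings. *Cdkn2a*, which encodes INK4A and ARF, was 5.40 and 5.25 log2-cpm at day 3 against 6.57 and 6.47 at day 6 (log2 fold change 1.20, standard error 0.12, adjusted p = 1.17e-05). The pro-apoptotic genes *Bbc3* (1.38) and *Bax* (1.12) rose. *Cdkn1a*, which encodes p21, was 8.99 and 8.86 log2-cpm at day 3 against 8.65 and 8.69 at day 6 and did not pass the threshold (log2 fold change −0.26, standard error 0.12, adjusted p = 0.0894). The death receptor *Fas* fell by 1.07.

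Clustered histone genes and ribosomal protein genes were mostly higher. Of 54 tested histone genes 49 were higher and 0 were lower (median 1.84), and of 78 cytosolic ribosomal protein genes 62 were higher and 0 were lower (median 1.15). Without day 3 replicate 2 the counts of higher genes were 40 and 51. The histone genes took 0.691% and 0.391% of the reads outside *Gm26917* at day 3 and 2.49% and 1.62% at day 6. The ribosomal protein genes took 4.48% and 3.58% at day 3 and 9.52% and 9.55% at day 6. Linker histone *Hist1h1c* was 8.69 and 8.06 log2-cpm at day 3 against 11.01 and 10.72 at day 6 (log2 fold change 2.49, standard error 0.22, adjusted p = 5.46e-06), and *Rps14*, of the small ribosomal subunit, was 9.32 and 9.08 log2-cpm at day 3 against 11.14 and 11.24 at day 6 (log2 fold change 1.99, standard error 0.15, adjusted p = 1.66e-06), although it overlaps *Ndst1* on the other strand. Both groups also rose in *siNcor1*, with 11 histone genes higher (median 0.58) and 45 ribosomal protein genes higher (median 0.68).

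These genes are short, and the shortest class of genes held more higher than lower calls. The median exonic length was 593 bases for the histone genes and 1776 bases for the ribosomal protein genes, against 4363 bases over all genes tested. Across the 5 classes of exonic length, the median log2 fold change went from 0.45 in the shortest class to −0.47 in the longest in the *siOct4* libraries, and from 0.25 to −0.31 in *siNcor1*. Small non-coding RNAs followed: of 48 tested snoRNA genes, 21 were higher and 0 were lower. *Rn7sk*, the RNA of the 7SK particle, which sequesters the elongation factor P-TEFb, took 0.844% and 0.448% of the reads outside *Gm26917* at day 3 and 3.18% and 2.61% at day 6 (log2 fold change 2.09, standard error 0.41, adjusted p = 0.00126). When the change of each gene was centred within its class of exonic length, the medians were 1.40 for the histone genes and 0.99 for the ribosomal protein genes, with 47 and 51 higher. The part of fragment length or RNA quality in these changes was not tested. Collagen chains are long, with a median of 7833 bases, and with the same centring their median was −1.33, with 15 lower. The contractile genes, at a median of 3332 bases, had a median of −2.27, with 20 lower, and the epithelial genes, at 3284 bases, one of 2.69, with 28 higher.

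**Figure D4:**
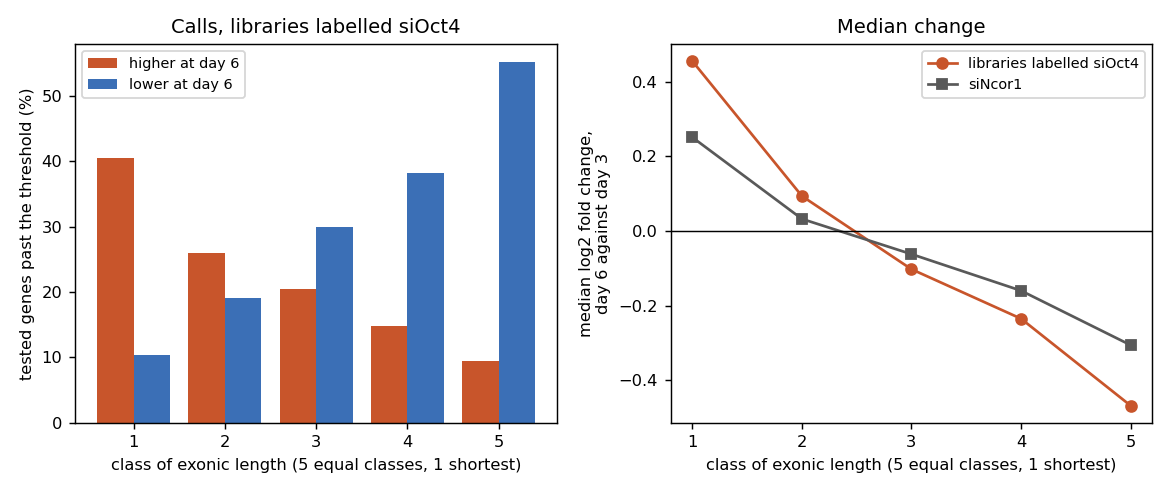
Left, share of the tested genes in each of 5 equal classes of exonic length (1 shortest, 5 longest) that were higher (orange) or lower (blue) at day 6 in the libraries labelled siOct4, in percent. Right, median log2 fold change of each class, which goes from 0.45 to −0.47 in the libraries labelled siOct4 (orange circles) and from 0.25 to −0.31 in siNcor1 (grey squares).

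Genes that assemble ribosomes did not follow the ribosomal proteins. Of 31 tested, 9 were higher and 5 were lower, and the median lay between −0.14 and 0.15 over the scalings. The counts of higher and lower members were 6 and 3 when day 3 replicate 2 was left out, 7 and 7 when day 6 replicate 2 was, and 12 and 3 after quantile normalization. *Nip7* (1.54), *Nhp2* (1.37) and *Rrp9* (1.23) rose and *Utp20* (−0.97), *Heatr1* (−0.63) and nucleolin, *Ncl* (−0.52), fell. Of 36 subunits of oxidative phosphorylation, 20 were higher and 2 were lower (median 0.44, median exonic length 2101 bases). Without day 3 replicate 2 the higher count was 13, and with centring within length classes 15 were higher and 7 were lower, with a median of 0.080. *Cox6c* (1.49 ± 0.19) and *Ndufa4* (1.49 ± 0.20) rose most, and *Sdha*, of complex II, fell (−0.71 ± 0.12). The mitochondrial transcript *mt-Co1* was 11.90 and 11.57 log2-cpm at day 3 against 12.25 and 12.87 at day 6 (log2 fold change 0.83, standard error 0.26, adjusted p = 0.019).

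Glycolysis genes rose more often than genes in general, with 12 of 22 higher and 2 lower (median 0.56). *Slc16a3*, the exporter of lactate, was 0.97 and 1.11 log2-cpm at day 3 against 6.74 and 5.55 at day 6, a rise of 34.4-fold (log2 fold change 5.10, standard error 0.30, adjusted p = 3.07e-07), with replicate 1 the higher at day 6. The glucose transporter *Slc2a3* had 131 and 67 reads at day 3 against 453 and 648 at day 6 (log2 fold change 2.55, standard error 0.14, adjusted p = 1.89e-07). *Aldoc*, an aldolase, rose by 3.14, and *Pdk1*, the kinase that holds pyruvate back from the mitochondria, was 5.08 and 4.72 log2-cpm at day 3 against 6.75 and 6.57 at day 6 (log2 fold change 1.76, standard error 0.14, adjusted p = 2.64e-06), while in *siNcor1* it changed by −0.027 (difference 1.79, standard error 0.20, adjusted p = 6.08e-04). Hexokinases went the other way, with *Hk1* at −0.45 and *Hk2* at −0.34, and both calls were lost with *Gm26917* left out of the library totals. Of 22 genes of the ATF4 response and of serine and one-carbon metabolism, 13 were higher and 0 were lower (median 0.46). *Cth*, which makes cysteine, was 5.12 and 5.09 log2-cpm at day 3 against 7.64 and 8.11 at day 6 (log2 fold change 2.77, standard error 0.16, adjusted p = 2.90e-07). *Chac1* (2.40) and *Trib3* (2.16), targets of ATF4, and *Phgdh* (0.95), the first enzyme of serine synthesis, rose. In *siNcor1* 4 of these genes were higher and 8 lower, and 11 had a more positive change in the *siOct4* libraries (7 without *siNcor1* day 6 replicate 2).

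Other pathways showed shares near those of all genes or small medians. Of 24 cholesterol genes 6 were higher and 6 were lower, with 1 higher without day 3 replicate 2 and 2 lower without day 3 replicate 1. Of 20 lysosome genes 2 were higher and 5 were lower (2 without day 3 replicate 2, 3 without day 3 replicate 1 and 9 without day 6 replicate 2), against 16 higher and 0 lower in *siNcor1*, and the change was more negative in the *siOct4* libraries for 13 (4 without *siNcor1* day 3 replicate 2, and 8 without either *siNcor1* day 6 library). Cathepsin K, *Ctsk*, a collagen-degrading protease, was at −0.32 (adjusted p = 0.203) against 1.21 in *siNcor1*. Of 15 Wnt pathway genes 5 were higher and 6 were lower. The stem cell receptor *Lgr5* (−2.21) and the inhibitor *Sfrp1* (−1.75) fell, and *Wnt6* (1 and 0 reads at day 3 against 5 and 8 at day 6, at least 2.07-fold higher) and *Sp5*, a target of β-catenin (1.99), rose, in medium that held a GSK3 inhibitor at both days. Of 13 FGF and MAPK feedback genes 3 were higher and 3 were lower, with *Fgf7* at −3.33 and *Etv4* at 1.28.

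Chromatin and RNA regulators changed in part. Of 18 DNA methylation and Polycomb genes 7 were higher and 3 were lower, with 3 higher when either day 3 library was left out and 0 lower without day 3 replicate 2, with quantile normalization or with centring within length classes (median length 6093 bases). The methyltransferase *Dnmt3b* was 2.12 and 2.58 log2-cpm at day 3 against 4.24 and 4.05 at day 6 (log2 fold change 1.80, standard error 0.21, adjusted p = 3.71e-05), *Cbx7* (1.58) and *Tet1* (1.11) rose, and *Ezh2* fell (−0.47), a call that was lost with scaling on the median, on quantiles or on totals without *Gm26917*. Of 15 splicing regulators 3 were higher and 7 were lower. These genes are long (median 8140 bases): their median log2 fold change of −0.39 became −0.076 with centring within length classes, and 1 was higher without day 3 replicate 2. *Mbnl1*, which favours splice forms of differentiated cells, was 7.72 and 7.63 log2-cpm at day 3 against 6.41 and 6.60 at day 6 (log2 fold change −1.18, standard error 0.13, adjusted p = 1.92e-05), *Celf2* fell by 1.51, and *Srsf3* rose by 1.05. Among 11 surface markers used to stage reprogramming, 5 were higher and 1 was lower (8 and 1 with centring within length classes). *Thy1*, a fibroblast surface protein lost early in cells that reprogramme, was 8.28 and 8.13 log2-cpm at day 3 against 8.15 and 8.11 at day 6 and did not pass the threshold (log2 fold change −0.073, standard error 0.13, adjusted p = 0.664), whereas in *siNcor1* it rose by 1.14 (difference −1.21, standard error 0.18, adjusted p = 0.00159). *Cd44* fell by 1.29 and *Kit* rose by 1.28.

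Of 7 macrophage markers 5 were in the table and 3 tested, with a summed level of between 6.77 and 13.1 CPM in the 4 libraries, and *Cd68* and *Lyz2* rose by 1.04 and 1.18 while *Csf1r* fell by 1.58. Endothelial markers summed to 42.0 and 41.8 CPM at day 3 and to 16.7 and 16.7 CPM at day 6, with *Tek* the only one tested (−1.31). Adipocyte markers summed to between 57.2 and 72.3 CPM, with 2 of 5 higher and 2 lower (*Plin1* 2.84 and *Pparg* −1.52). Skeletal muscle markers summed to 44.2 and 40.4 CPM at day 3 and to 13.2 and 9.0 CPM at day 6, with *Acta1* at −3.94, and primitive endoderm markers to 55.1 and 49.6 CPM at day 3 and to 25.7 and 30.7 CPM at day 6, with *Sox7* at 1.72 and *Gata6* at −1.24. Of 26 listed neural genes 17 were measured and 13 were tested. Of those tested 5 were higher and 2 were lower, with *Ncam1* at −2.45. The sum over those measured was between 463 and 497 CPM in the 4 libraries. Of 23 listed germline genes 9 were measured and 4 were tested, and 2 of these were higher (*Stag3* 1.78 and *Piwil2* 1.75). The part of other cell types in the changes was not tested.

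Changes were also ranked by CPM. The 10 called genes with the largest loss of mean CPM were *Acta2*, *Col1a1*, *Thbs1*, *Fn1*, *Actb*, *Flna*, *Ahnak*, *Col12a1*, *Myh9* and *Hspg2*. *Actb*, cytoplasmic β-actin, which is often used as a reference gene, was 12.77 and 12.69 log2-cpm at day 3 against 11.43 and 11.13 at day 6 (log2 fold change −1.45, standard error 0.22, adjusted p = 2.32e-04). Filamin A, *Flna*, fell by 2.05 and non-muscle myosin *Myh9* fell by 1.62. Among the 10 with the largest gain were *Rn7sk*, *mt-Co1*, *Hist1h1c*, *Rps14*, *Rps18*, *Rplp1*, *Rpsa* and *Rpl12*, with log2 fold changes of between 0.83 and 2.49.

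**Figure D5:**
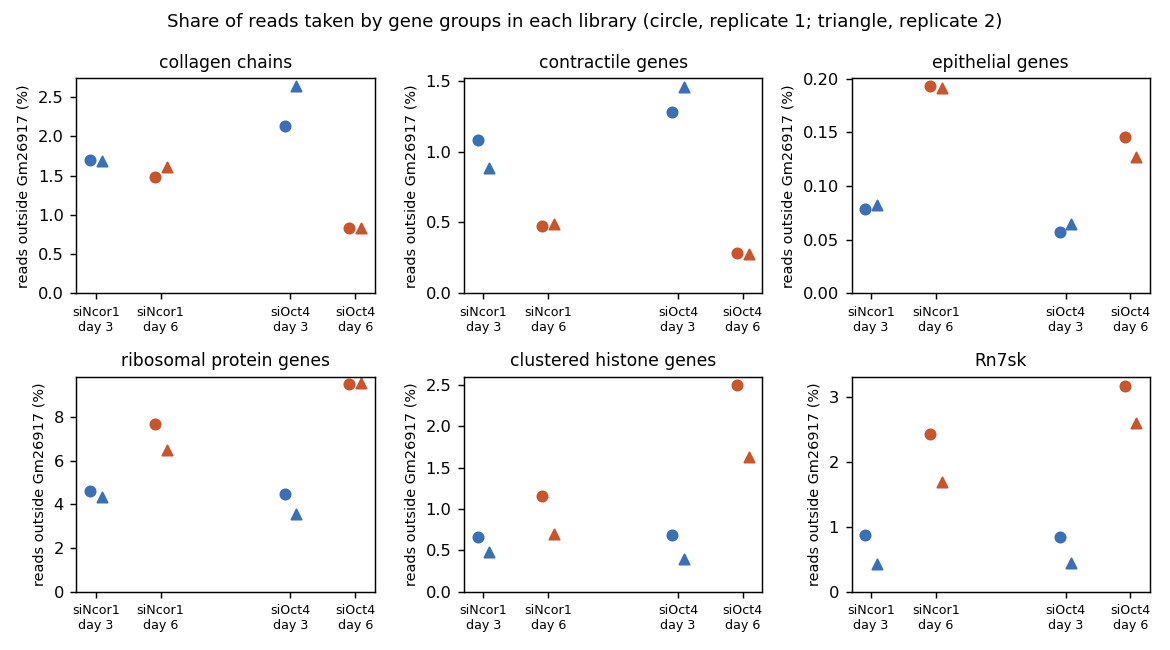
Share of the reads outside Gm26917 (percent, vertical axes from 0) taken by 5 gene groups and by Rn7sk in each of the 8 libraries, day 3 in blue and day 6 in orange, circles for replicate 1 and triangles for replicate 2. Collagen chains fall from 2.14% and 2.65% to 0.833% and 0.832% in the libraries labelled siOct4 and lie between 1.48% and 1.71% in siNcor1.

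The change between the days in *siNcor1* is the closest comparison, with no library shared between the 2 contrasts. Without a non-targeting control among the 8 libraries, a difference between the knockdowns cannot be assigned to either of them. In *siNcor1*, 34.8% of the genes (4819) were called, with a median absolute log2 difference between the days of 0.368. Of the genes called in the *siOct4* libraries, 3136 were called in the same direction in *siNcor1*, which is 42.9% of the *siOct4* calls and 65.1% of the *siNcor1* calls. In the opposite direction, 77 genes rose in the *siOct4* libraries and fell in *siNcor1* and 122 did the reverse. The test of the difference of the changes called 2867 genes (20.7%). The genes in the next counts were selected on the *siOct4* change, which also enters the difference. Their counts therefore lean by selection towards a greater change in *siOct4*. Among the 4233 genes that fell in the *siOct4* libraries, 1441 had a more negative change there than in *siNcor1* and 23 a less negative one. Among the 3079 that rose, 788 had a more positive change and 55 a less positive one. Single libraries bore on this count, which was 1009 without *siNcor1* day 3 replicate 2, 1189 and 1767 without *siNcor1* day 6 replicates 2 and 1, and 1377 without *siOct4* day 3 replicate 2, with the lone library of a group assumed to vary like the other groups. With any 1 of the 8 libraries left out, the change was more negative in the *siOct4* libraries for between 17 and 21 collagen chains, between 14 and 19 contractile genes and between 13 and 21 proteases and inhibitors, and more positive for 0 of these lists.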

How the data were processed

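Gene expression was measured by RNA-seq in 8 libraries, 2 in each of 4 groups (2 knockdowns at day 3 and day 6). The authors deposited 1 table of 18990 genes in log2-cpm, the log2 of reads scaled to library size, made with edgeR 3.20.9 after alignment with STAR 2.5.2b to mm10, according to the submitters' processing notes and the study's methods. The tool that counted reads on genes, and whether it used strand, is not given in the sources used here. The values had been normalised before they were deposited, so reads were recovered from them: every value was a whole number of reads after removal of a constant (100% within 0.1 of a read). Libraries held between 7735742 and 16445192 reads on genes. Lower bounds of a fold set both libraries of the low day at 3 reads and divide the mean CPM of the high day by that level. They allow for no counting error at the high day and for no spread between libraries.

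The 13866 genes that averaged 1 CPM or more were tested on the deposited log2-cpm with limma 3.58.1 (R 4.3.3; lmFit, then eBayes allowing a mean-variance trend, two-sided, Benjamini-Hochberg over all tested genes at 0.05), with all 4 groups fitted together and no replicate block. The contrasts were day 6 minus day 3 in *siOct4*, the same in *siNcor1*, and their difference. The analysis was tested on simulated data. The labels call the replicates biological without naming separate cultures or animals, so p-values measure the spread between these libraries. Gene positions and exonic lengths came from GENCODE M21, which matched 18969 of the 18990 identifiers, and promoters from RefSeq (GRCm38.p6). Only 74.7% of the tested genes (10357) had a promoter entry, so a comparison of motif shares between genes that rose and fell was void. Figures were drawn with matplotlib 3.10.9.

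The members and gene lists were chosen with earlier results of these data known, so the counts per list describe these libraries and are not independent evidence. Named genes were the 10 largest changes in each direction with no overlap between the days, the 3 largest called changes per list and direction, a fixed set of defining genes, the 10 largest changes of mean CPM in each direction, the gained and lost genes with most reads, and *Gm26917*. Some genes that meet this rule are not reported here. Other list members were named after their values were seen, to show the range of a list or as known regulators. The alternatives covered the trend, the scaling, the filter, the pseudocount, the test (limma's voom on the recovered reads), the replicate block, the groups in the fit, a minimum change and each library left out. Centring within 5 classes of gene length, and the difference of the changes without each *siNcor1* library, were added after seeing the data.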

Additional observations from a re-analysis of the deposited data

Results flagged for a closer look

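The change from day 3 to day 6 differed between the libraries labelled *siOct4* and *siNcor1* for 2867 genes by the test of the difference itself (limma, adjusted p under 0.05). Of the 204 genes named and tested here, 124 were among them, 91 with a more negative and 33 with a more positive change in *siOct4*. Many were named for a large change in *siOct4*, which also enters the difference, so the split describes the named genes only. No group had the 4 libraries needed to look for single libraries that stand apart. The values below are differences of log2 fold changes, *siOct4* minus *siNcor1*, for the genes whose change in both knockdowns is described above.

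The difference was negative for genes of the fibroblast state. For the YAP targets it was −2.88 for *Ctgf* and −2.43 for *Ankrd1*, which fell in both knockdowns. For the collagen chains it was −1.73 for *Col1a1*, −1.05 for *Col3a1* and −1.60 for *Col6a3*. The chemokine *Ccl2* differed by −2.39 and the acute-phase gene *Saa3* by −3.12. For the protease *Ctsk* (−1.53) and the surface marker *Thy1* (−1.21), the change was called in *siNcor1* and not in *siOct4*.

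Epithelial and pluripotency genes differed in both directions. *Cdh1* (1.34) and *Esrp1* (2.00) rose more in *siOct4*, and *Krt18* rose less (−3.24). *Gjb2* (−6.58) and *Tfcp2l1* (−3.48) fell in *siOct4* and rose in *siNcor1*. The fitted value of *Gjb2* depends on the constant added to the values, because both *siOct4* day 6 libraries held 1 read.

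The 4 cassette factors had a more positive change in *siOct4*, by 1.85 for *Pou5f1*, 1.74 for *Klf4*, 1.58 for *Sox2* and 1.64 for *Myc*. For *Pdk1* the difference was 1.79.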

How the results depend on the processing

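Without single *siOct4* libraries, the 7312 genes called in *siOct4* became between 5397 and 7374, the 3079 higher ones between 2125 and 2992 and the 4233 lower ones between 3272 and 4490. A minimum log2 fold change of 1 left 2983 genes (1593 higher and 1390 lower), and a mean of at least 10 CPM left 1819 higher, with fewer genes tested. The share of called genes that were higher, 42.1%, was 52.5% with totals without *Gm26917*, 49.2% with centring within length classes and 33.8% at 10 CPM. The 2867 differences between the knockdowns became 1486 with a minimum change of 1, and between 1009 and 3667 with 1 library left out. The 4819 genes called in *siNcor1* became 1291 with that minimum, and between 2360 and 3292 with 1 of its libraries left out (2360 and 2572 and 2980 without day 3 replicate 2 and day 6 replicates 1 and 2). The counts of 27 gained and 4 lost genes were 133 and 36 at 10 reads, 2 and 0 at 100 reads, and 6 and 0 with 0 reads required at the low day.

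The labels do not say that a replicate number marks a batch, and deviations of same-numbered libraries correlated by between −0.040 and 0.281, so the replicate block was only an alternative. With the replicate block, 7570 genes were called in *siOct4*, 5218 in *siNcor1* and 3395 for the difference.

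Of 204 named and tested genes 191 were called, and 171 of these were called in the same direction in every alternative that tested them (up to 17; a filter at 10 CPM leaves some out). The calls of *Ezh2* and *Hk2* were lost with 4 of the 5 other scalings, and *Hk1* was at 0.00020 with centring within length classes, the 1 change of sign among the called genes. That centring also ended the calls of *Cd68*, *Col3a1*, *Col6a2*, *Col6a3*, *Heatr1*, *Hoxb7*, *Lyz2*, *Ncl*, *Rrm1*, *Yap1* and *mt-Co1*, and quantile normalisation those of *Rn7sk* and *Wnt6*. Without day 3 replicate 2, the shallowest library, the calls of *Col3a1*, *Col6a3*, *Csf1r*, *Ezh2*, *Gjb2*, *Hk1*, *Hk2*, *Ncl*, *Sox7* and *mt-Co1* were lost. Without day 3 replicate 1 those of *Cd68*, *Ezh2*, *Hk2*, *Itgb3* and *Lyz2* were lost, without day 6 replicate 1 those of *Col3a1*, *Ezh2* and *Ncl*, and without day 6 replicate 2 those of *Hk1*, *Hk2* and *mt-Co1*. *Gm26917* passed the threshold without the trend and with voom. The cause was not tested for any of these. At the depth of the *siOct4* libraries, levels under the 3-read floor (between 0.203 and 0.380 CPM) were not detectable, so the gained and lost genes have only lower bounds of their folds.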
